A study of Mus musculus with 13 samples.

Results

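The comparison described here set Neuro2a cells that survived a failure of liquid nitrogen storage against cells of the same line that stayed in normal storage, both sampled at passage 1, the early recovery after plating. It used 7 of the series' 13 RNA-seq libraries, 4 from survivors and 3 from controls, chosen by their labels and not by any measured value. Neuro2a is a mouse neuroblastoma line, a tumour-derived culture of sympathetic neuroblast type that grows in ordinary dishes. Survivor vials, frozen in 10% DMSO, sat in a dewar that lost its liquid nitrogen by evaporation over 10 h while kept at 4 °C and then stayed at 4 °C for 24 h. They were next held at -80 °C for 72 h, thawed at 37 °C and plated. Control vials, also in 10% DMSO, remained in cryostorage and were thawed and plated in the same way. RNA of both groups was taken at passage 1, when the survivors were dividing again, and poly(A) libraries that keep the strand were prepared after the RNA integrity number had been found to exceed 7. The other 6 libraries, 3 controls and 3 survivors at passage 6, enter only where a change is set beside its later value. The labels do not say whether the replicates came from separate vials or dishes, so p-values measure only the spread between these libraries, which may be technical.

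Cells that attach and pull on a surface assemble actin and myosin into stress fibres, anchor them through integrins to laminin and other matrix proteins, and turn on contractile genes through the transcription factor SRF, whose cofactors are held by free actin, and through YAP, TAZ and the TEAD factors. Growth factors acting through ERK switch on immediate early genes and then feedback inhibitors such as the Sprouty proteins. Low oxygen stabilises HIF-1, which raises glucose uptake and glycolysis through sites that hold the letters ACGTG. Sympathetic neuroblasts are otherwise known for catecholamine synthesis and storage, and they share the GATA and LMO families of transcription factors with blood precursors.

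Values are FPKM, fragment counts divided by transcript length and by the library's total, so levels are per length and genes can be compared. Of the genes in the table, 12469 had at least 1 FPKM in at least 3 of the 7 libraries and were tested with limma on log2(FPKM + 1), with Benjamini-Hochberg adjustment over all of them and a threshold of 0.05. Folds are those of FPKM + 1, which understates the change of genes near or below 1 FPKM. A gene below 1 FPKM in every library of 1 group passed the filter only through the other group, which largely set its direction. Among the genes whose library values are printed below, Acta1, Actc1, Synpo2, Tead2, Axl, Amotl2, Wnt5a and Kif21b entered only through the survivors. Such genes are also counted in the list totals. In the survivors 1434 genes were higher, 11.5% of those tested, and 2358 were lower, 18.9%, so that 30.4% changed in either direction. The median log2 difference over all tested genes was -0.053. Most changes were small: 286 genes were higher and 218 lower by at least 1.5-fold, and 71 and 45 by at least 2-fold. Higher genes made up 37.8% of the called genes, but 48.8% when FPKM were scaled to equal totals, 55.5% with median-of-ratios scaling and 50.2% with quantile normalization, so small decreases of large gene families depend on the scaling. With 2 controls in place of 3 the fit called 830 to 854 higher and 1200 to 1257 lower genes, whichever control was left out. The groups did not overlap in 42.6% of tested genes. Among the 3792 called genes they did not overlap in 3747, so a lack of overlap noted below adds little to a call. Because these are bulk samples, fewer cells of a type and less RNA per cell cannot be told apart.

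The label was checked against 16 markers of sympathetic neuroblasts, whose summed level was 1371 to 1420 FPKM in the controls and 1316 to 1368 FPKM in the survivors, with 13 of them at 1 FPKM or more in every library. Relative sequencing depth, read from the steps between low values, was 1.0 to 1.24 times that of control 1 in the controls and 1.16 to 1.34 times in the survivors. Transcripts of the mitochondrial genome took 14.5 to 14.8% of FPKM in the controls and 14.7, 14.0, 12.3 and 13.6% in survivors 1 to 4. Transcripts of tissues that a Neuro2a culture is not known to hold were also found: 30 markers of colon epithelium summed to 270 to 616 FPKM in the controls and to 251, 228, 7.53 and 109 FPKM in survivors 1 to 4. Cartilage markers summed to 12.1, 52.4 and 51.5 FPKM in the controls and to 36.3, 37.5, 41.0 and 15.8 FPKM in the survivors. Where a gene follows these sums it is said beside its values.

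The largest changes lay in the contractile and actin cytoskeleton genes. Of 34 tested members 26 were higher and none lower in the survivors, against 11.5% and 18.9% of all genes, and their median log2 difference was 0.50. The smooth muscle actins and myosins led with 9 of 10 members higher and a median of 0.84, followed by the proteins that bind and cross-link filaments with 14 of 19 higher and a median of 0.40. With any 1 library left out 23 to 28 members were higher, and under the 3 other scalings 27 to 29.

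Myl9, the regulatory light chain whose phosphorylation starts contraction, lies on chromosome 2 from 156775420 to 156781658, plus strand, in mm10 coordinates, and stood at 5.36, 6.30 and 5.50 FPKM in the controls and 62.5, 54.7, 51.2 and 54.2 FPKM in the survivors. Its group means were 5.72 ± 0.506 FPKM (SD, n = 3) in the controls and 55.7 ± 4.82 FPKM (SD, n = 4) in the survivors, an 8.43-fold difference with a log2 difference of 3.07 and a standard error of 0.078 (limma adjusted p = 1.67e-06). Acta2, smooth muscle alpha-actin, stood at 10.4, 15.0 and 12.8 FPKM in the controls and 224, 216, 194 and 217 FPKM in the survivors, 15.7-fold higher (limma adjusted p = 1.67e-06). All 4 survivors lay far above all 3 controls for both genes, and the spread among survivors was small beside the gap.

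The other muscle actins rose from very low levels. Actg2, the enteric smooth muscle actin, gave 0.981, 1.24 and 0.823 FPKM in the controls and 15.3, 13.1, 10.8 and 11.95 FPKM in the survivors (6.82-fold, limma adjusted p = 1.27e-05), and Acta1, the skeletal muscle actin, gave 0.721, 0.523 and 0.466 FPKM in the controls and 5.06, 4.42, 4.93 and 5.44 FPKM in the survivors (log2 difference 1.93, limma adjusted p = 1.43e-05). Actc1, the cardiac actin, gave 0.570, 0.656 and 0.843 FPKM in the controls and 3.30, 2.43, 2.29 and 2.19 FPKM in the survivors. Like Acta1, it entered the test only through the survivors. The cytoplasmic actins, which make most of the cell's actin, moved far less: Actb was 1.24-fold and Actg1 1.19-fold higher. Reads of these near-identical coding sequences can be split between genes, so the values of each actin are uncertain to that extent.

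Filament-binding proteins of non-muscle cells rose from levels that were already high. Csrp1, a LIM protein of stress fibres, stood at 53.4, 53.6 and 55.2 FPKM in the controls and 113, 97.3, 123 and 126 FPKM in the survivors, 2.10-fold higher (limma adjusted p = 0.000184), and Cnn2, a calponin, at 22.3, 24.2 and 23.2 FPKM in the controls and 51.6, 44.1, 57.6 and 52.6 FPKM in the survivors, 2.16-fold higher (limma adjusted p = 0.000139). Fblim1, which links filamins to adhesion sites, gave 1.73, 1.35 and 1.30 FPKM in the controls and 6.44, 4.95, 9.08 and 8.36 FPKM in the survivors (3.27-fold, limma adjusted p = 0.000548). Each gene's survivors lay above all of its controls. Flna, the cross-linker filamin A, was 1.58-fold, the tropomyosins Tpm1 and Tpm2 1.59- and 1.62-fold, the myosin heavy chain Myh9 1.46-fold and Vcl, the adhesion protein vinculin, 1.73-fold higher.

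Not every contractile gene took part. Tagln2 (limma adjusted p = 0.903) and the SRF cofactors Mrtfa (0.187) and Mrtfb (0.918) did not pass the test, whereas Srf itself stood at 26.6, 29.0 and 29.9 FPKM in the controls and 34.0, 38.3, 44.8 and 46.6 FPKM in the survivors, 1.41-fold higher (limma adjusted p = 0.0109). Over the 10 smooth muscle markers found, the summed level was 21.5 to 27.9 FPKM in the controls and 265 to 311 FPKM in the survivors, almost all of it Acta2, Myl9 and Actg2. Smtn and Synpo2, actin-associated proteins of muscle, were also called, 1.47- and 1.46-fold higher, with 2.82, 3.19 and 2.87 FPKM in the controls and 4.62, 4.79, 4.97 and 4.82 FPKM in the survivors for Smtn and 0.859, 0.876 and 0.956 FPKM in the controls and 1.59, 1.79, 1.77 and 1.89 FPKM in the survivors for Synpo2. Des stayed between 0.845 and 1.37 FPKM. The other 4 markers stayed below 1 FPKM in every library. Myh11, the smooth muscle myosin heavy chain, was at most 0.0471 FPKM in the controls and 0.305 to 0.391 FPKM in the survivors, Cnn1 never exceeded 0.114 FPKM, and Tagln (up to 0.768 FPKM) and Lmod1 (up to 0.767 FPKM) were also low. These 4 genes and Des did not reach the level required for testing.

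**Figure D1:**
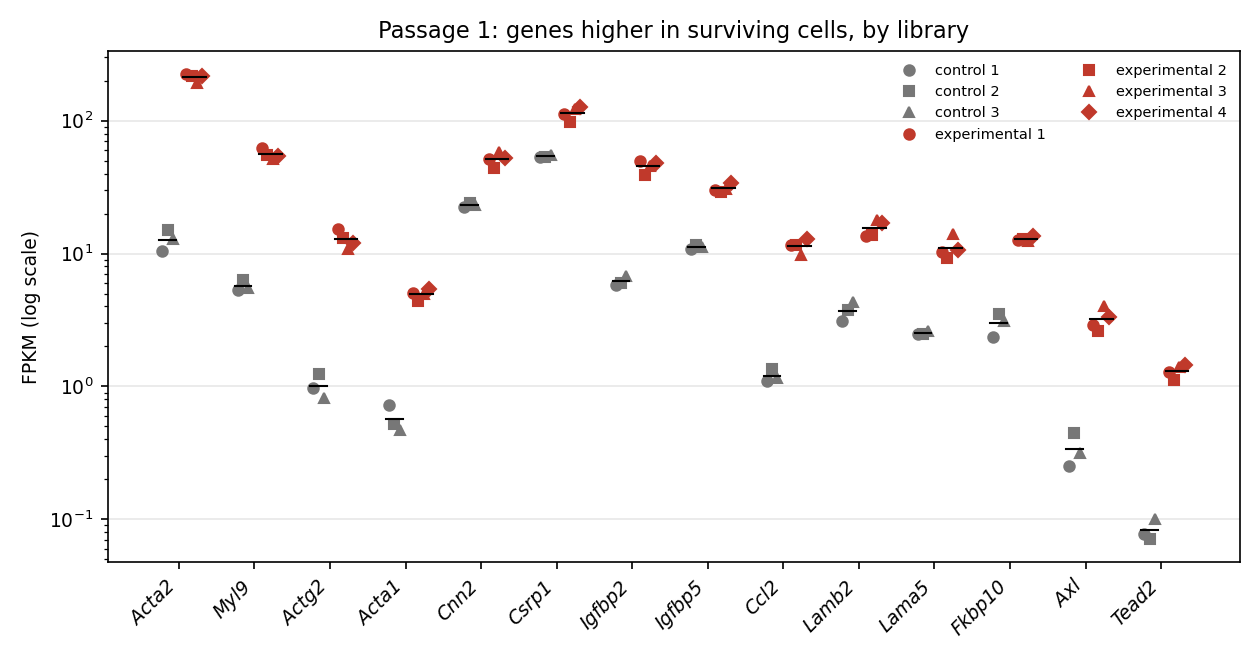
FPKM of 14 genes in each of the 7 passage 1 libraries on a log scale, controls and survivors side by side, with a line at each group mean. Each gene's survivors lie above its controls, with the widest gap for Acta2, and Acta1, Axl and Tead2 start below 1 FPKM.

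SRF binds the CArG box, a 10-letter element searched here only in its strict form, CC and GG with A or T alone between them. Both strands were searched in the 250 bases before to 50 bases after the RefSeq start of each gene (GRCm38.p6). This window was available for 8759 of the 12469 tested genes. A match was present in 120 of them, 1.37%. It was present in 30 of 1050 higher genes (2.86%), in 15 of 1766 lower genes (0.849%) and in 75 of 5943 genes that were not called (1.26%). Among genes higher by at least 2-fold the count was 6 of 49 (12.2%), and among those lower by at least 2-fold 0 of 31. In the contractile list 7 of 30 genes with a window had a match (23.3%), namely Acta1, Actc1, Myl9, Cnn2, Vcl, Actg1 and Srf. Each of the 7 was higher in the survivors, but so were 24 of the 30 with or without a match. Acta1, Actc1, Myl9 and Cnn2 are also among the 6 genes with a match that were higher by at least 2-fold, so the 2 counts share genes. Acta1 and Actc1 entered the test only through the survivors, which largely set their direction. No match lay in the window of Acta2, but forms with other letters in the core were not searched. Up to 250 bases before the start, without any that the gene annotation places inside the gene, are printed for 4 of these genes because they place the element, in capitals, beside the contractile genes that moved together; its first base lies 73 bases before the start in Acta1 (chr8:123894776-123895025, minus strand), 161 in Myl9 (chr2:156775214-156775419, plus strand), 227 in Vcl (chr14:20929148-20929397, plus strand), and 82 and 62 in Srf (chr17:46556176-46556412, minus strand).
Acta1: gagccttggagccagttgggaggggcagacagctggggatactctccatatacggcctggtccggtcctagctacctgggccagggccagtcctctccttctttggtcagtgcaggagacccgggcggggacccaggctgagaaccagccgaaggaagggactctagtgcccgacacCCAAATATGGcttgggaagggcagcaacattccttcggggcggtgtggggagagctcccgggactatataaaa
Myl9: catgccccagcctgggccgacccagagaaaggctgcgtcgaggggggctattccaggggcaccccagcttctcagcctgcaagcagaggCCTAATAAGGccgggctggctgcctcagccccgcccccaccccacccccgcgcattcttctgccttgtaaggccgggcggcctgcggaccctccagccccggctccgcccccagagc
Vcl: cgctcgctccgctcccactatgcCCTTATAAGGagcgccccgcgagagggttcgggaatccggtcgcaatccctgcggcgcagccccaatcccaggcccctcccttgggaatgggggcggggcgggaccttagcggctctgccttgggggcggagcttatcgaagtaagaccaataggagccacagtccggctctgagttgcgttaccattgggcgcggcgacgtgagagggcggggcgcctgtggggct
Srf: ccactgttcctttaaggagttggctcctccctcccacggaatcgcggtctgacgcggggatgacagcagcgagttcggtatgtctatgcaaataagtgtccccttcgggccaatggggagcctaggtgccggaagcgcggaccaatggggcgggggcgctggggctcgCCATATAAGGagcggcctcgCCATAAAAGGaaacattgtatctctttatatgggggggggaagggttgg
A match describes the letters only and is not evidence of binding in these cells.

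Adhesion receptors and their adaptors were mostly higher as well. Of 26 tested integrins and adaptors 15 were higher and 2 lower, with a median log2 difference of 0.24. Itga5, the fibronectin receptor chain, stood at 1.79, 1.84 and 2.11 FPKM in the controls and 5.50, 4.54, 6.20 and 5.35 FPKM in the survivors, 2.19-fold higher (limma adjusted p = 0.000189). Itga3, a laminin receptor chain, was 2.42-fold higher, and the signalling adaptors Bcar1 and Src were 1.57- and 1.40-fold higher. The common beta chain Itgb1 differed by only 1.14-fold and lost its call when any 1 control was left out (limma adjusted p up to 0.0917).

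The YAP and TEAD genes moved at several levels of the pathway. Of 24 tested members 15 were higher and 1 lower, with a median of 0.24, including 9 of 14 effectors and kinases and 6 of 10 targets. The count fell to 9 without control 2 or without control 3. Wwtr1, the co-activator TAZ, stood at 5.30, 6.33 and 6.04 FPKM in the controls and 10.9, 10.8, 15.7 and 13.5 FPKM in the survivors, 1.97-fold higher (limma adjusted p = 0.00141). Tead2, one of the DNA-binding partners, was barely detected in the controls, with 0.0777, 0.0711 and 0.101 FPKM in the controls and 1.28, 1.11, 1.39 and 1.46 FPKM in the survivors. It entered the test only through the survivors. Tead1 was 1.31-fold higher. Yap1 was not among the tested genes.

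Of the target genes, Axl, a receptor tyrosine kinase, gave 0.250, 0.444 and 0.313 FPKM in the controls and 2.89, 2.63, 4.04 and 3.31 FPKM in the survivors, 3.14-fold higher (limma adjusted p = 0.00011). Ccn1, a secreted matricellular protein, gave 10.6, 11.9 and 12.9 FPKM in the controls and 24.7, 20.9, 36.6 and 28.8 FPKM in the survivors (2.21-fold), and Amotl2, an angiomotin that binds YAP, gave 0.812, 0.958 and 0.747 FPKM in the controls and 2.29, 2.89, 2.92 and 2.62 FPKM in the survivors (2.00-fold, limma adjusted p = 0.00025). In all 3 the lowest survivor lay above the highest control, but Axl and Amotl2 entered the test only through the survivors. The closely related target Ccn2 gave 0, 2.74 and 3.13 FPKM in the controls and 1.60, 1.71, 2.18 and 0.163 FPKM in the survivors, overlapping between the groups and near 0 in control 1 and survivor 4, the same 2 libraries in which the cartilage sum was lowest; the part of cartilage transcripts in that pattern was not tested.

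Matrix genes divided by kind. Of 14 tested basement membrane genes 8 were higher and none lower, with a median of 0.35, and 4 of 5 laminin chains were among them; without control 1 the count was 5. Lamb2, a laminin beta chain, stood at 3.11, 3.74 and 4.34 FPKM in the controls and 13.6, 13.8, 18.004 and 17.01 FPKM in the survivors, 3.51-fold higher (limma adjusted p = 9.74e-05), and Lama5, an alpha chain, at 2.47, 2.48 and 2.60 FPKM in the controls and 10.2, 9.21, 14.0 and 10.6 FPKM in the survivors, 3.38-fold higher (limma adjusted p = 9.74e-05). Survivor 3 was highest for both, and the groups did not overlap. Dag1, the laminin receptor dystroglycan, was 1.48-fold higher (limma adjusted p = 0.00089).

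The collagen chain of the basement membrane did not follow the laminins: Col4a1 stood at 52.0, 56.0 and 56.8 FPKM in the controls and 51.3, 56.1, 57.4 and 52.3 FPKM in the survivors (limma adjusted p = 0.835), with the groups overlapping. None of the 5 tested fibrillar collagen chains was called in either direction. Col1a1 gave 0.0469, 4.65 and 4.29 FPKM in the controls and 2.89, 2.77, 3.57 and 0.462 FPKM in the survivors, and the collagen chaperone Serpinh1 gave 1.20, 6.61 and 7.11 FPKM in the controls and 5.52, 5.13, 6.03 and 0.923 FPKM in the survivors; in both, control 1 and survivor 4 were lowest, as in the cartilage sums, and the part of those transcripts was not tested. The 20 genes of the fibrillar matrix list had a median of -0.00313, with 4 higher and 3 lower. The number lower was 1 without control 1 and 0 without control 2, control 3 or survivor 4, and the number higher was 7 without survivor 2.

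Enzymes that fold and cross-link collagen were nevertheless higher, 10 of 22 against 1 lower, with a median of 0.17. Fkbp10, a prolyl isomerase of the endoplasmic reticulum, stood at 2.36, 3.51 and 3.08 FPKM in the controls and 12.6, 12.9, 12.4 and 13.5 FPKM in the survivors, 3.50-fold higher (limma adjusted p = 3.11e-05). Bmp1, the proteinase that trims procollagen, gave 4.89, 5.24 and 5.31 FPKM in the controls and 12.04, 10.4, 11.4 and 11.2 FPKM in the survivors (1.99-fold, limma adjusted p = 5.38e-05), and Loxl2, a lysyl oxidase, gave 24.7, 27.6 and 26.01 FPKM in the controls and 48.3, 45.7, 60.2 and 53.1 FPKM in the survivors (1.94-fold, limma adjusted p = 0.000435). The survivors of each gene lay above its controls.

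In the insulin-like growth factor axis the secreted binding proteins changed most. Igfbp2 lies on chromosome 1 from 72824503 to 72852474, plus strand and stood at 5.79, 5.96 and 6.75 FPKM in the controls and 49.6, 39.2, 45.9 and 48.3 FPKM in the survivors, 6.50-fold higher (limma adjusted p = 4.44e-06). Igfbp5, its neighbour on the same chromosome, gave 10.9, 11.5 and 11.2 FPKM in the controls and 30.1, 29.2, 30.7 and 34.0 FPKM in the survivors, 2.62-fold higher (limma adjusted p = 1.27e-05). Igfbp4 was 1.39-fold and the receptor Igf1r 1.51-fold higher, with no overlap between the groups.

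Downstream of the receptor the direction differed. Irs1, the adaptor that carries the signal inside the cell, stood at 3.48, 3.27 and 3.24 FPKM in the controls and 2.16, 2.17, 2.47 and 2.14 FPKM in the survivors, 1.34-fold lower (limma adjusted p = 0.0025). Igf2r, which clears IGF2, was 1.29-fold lower, a call that was lost without control 3 (limma adjusted p = 0.0529). Igf2 gave 0, 6.44 and 6.56 FPKM in the controls and 4.18, 3.93, 4.16 and 0.0211 FPKM in the survivors, another gene near 0 in control 1 and survivor 4. Of 12 tested genes of the axis 4 were higher, the same number whichever library was left out, and 3 were lower, or 1 without control 3.

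Proteoglycans and fibroblast growth factor binding genes were higher in 9 of 15 and lower in none, with a median of 0.28. Fgfr1, a receptor of fibroblast growth factors, stood at 5.74, 6.08 and 6.28 FPKM in the controls and 14.8, 14.4, 15.5 and 14.8 FPKM in the survivors, 2.26-fold higher with a standard error of 0.049 on the log2 scale (limma adjusted p = 1.27e-05). Gpc1, a membrane-anchored heparan sulphate carrier, gave 17.6, 19.4 and 18.3 FPKM in the controls and 37.2, 37.3, 35.01 and 34.1 FPKM in the survivors (1.90-fold, limma adjusted p = 4.82e-05), and Sdc3, a syndecan, gave 10.5, 11.5 and 10.8 FPKM in the controls and 17.6, 16.7, 21.8 and 18.9 FPKM in the survivors (1.64-fold). All 3 separated the groups completely.

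Feedback inhibitors induced by the ERK pathway were higher. Spry2, a Sprouty protein, stood at 12.5, 13.4 and 13.6 FPKM in the controls and 27.7, 24.1, 25.4 and 24.2 FPKM in the survivors, 1.86-fold higher (limma adjusted p = 0.000102). Spry4 was 1.46-fold higher (limma adjusted p = 0.000367), and Dusp6, a phosphatase of the pathway, gave 35.3, 35.9 and 32.7 FPKM in the controls and 44.1, 49.7, 50.5 and 51.2 FPKM in the survivors (1.40-fold, limma adjusted p = 0.00148). Of 31 tested genes 11 were higher and 3 lower, with a median of 0.099, and the 11 comprised 5 of 9 phosphatases and 6 of 11 Sprouty, Spred and ETS genes. The count of higher genes fell to 5 without control 1, 5 without control 2, 3 without control 3 and 4 without survivor 4.

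Immediate early transcription factors, which respond within minutes to growth factors, adhesion and stress, were higher in 20 of 27 tested members and lower in none, with a median of 0.53. The EGR group led, with 4 of 5 members higher and a median of 1.19. Egr2 stood at 2.49, 2.81 and 2.38 FPKM in the controls and 10.6, 7.27, 12.7 and 13.3 FPKM in the survivors, 3.30-fold higher (limma adjusted p = 0.000548), and Fos at 11.8, 9.99 and 9.69 FPKM in the controls and 22.6, 16.7, 26.1 and 25.1 FPKM in the survivors, 2.04-fold higher (limma adjusted p = 0.00204). Survivor 2 was lowest in both, though above every control.

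Within AP-1, Junb stood at 43.7, 43.0 and 43.9 FPKM in the controls and 64.7, 65.6, 70.4 and 67.7 FPKM in the survivors, 1.53-fold higher (limma adjusted p = 0.00011), whereas Jun gave 42.5, 42.3 and 42.5 FPKM in the controls and 44.3, 37.8, 48.5 and 46.3 FPKM in the survivors and did not pass the test. Atf3, a stress-induced member, gave 26.7, 26.4 and 26.1 FPKM in the controls and 16.6, 12.4, 35.2 and 35.1 FPKM in the survivors: survivors 1 and 2 lay below and survivors 3 and 4 above all controls, so the gene was not called. Zfp36, an RNA-binding protein that shortens the life of cytokine and immediate early transcripts, was 1.67-fold higher. With any 1 library left out 14 to 23 members of the list were higher.

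Among cytokine and NF-kB genes 12 of 27 were higher and 4 lower, with a median of 0.093. Ccl2, a monocyte chemokine, stood at 1.10, 1.34 and 1.15 FPKM in the controls and 11.7, 11.6, 9.69 and 12.8 FPKM in the survivors, 5.64-fold higher with a log2 difference of 2.50 and a standard error of 0.09 (limma adjusted p = 7.4e-06). The inhibitors Nfkbia and Socs3 were 1.246- and 1.43-fold higher, and the NF-kB subunit Rela was 1.19-fold lower. Without control 2 or without control 3 the count of higher genes was 7. Ifitm3, a membrane protein that blocks virus entry, stood at 5.44, 7.04 and 5.80 FPKM in the controls and 21.0, 20.04, 23.4 and 23.1 FPKM in the survivors (3.23-fold, limma adjusted p = 3.11e-05), although only 2 of 20 tested interferon genes were higher and 3 were lower; the number lower was 0 without control 1 and 1 without control 2, control 3, survivor 1 or survivor 4.

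Receptors of guidance and Wnt signalling were among the higher genes. Of 25 tested semaphorin, netrin, slit and ephrin genes 13 were higher and 2 lower, with a median of 0.31, and of the 11 receptors 7 were higher. Plxna1, a semaphorin receptor, stood at 18.01, 19.1 and 18.9 FPKM in the controls and 31.5, 33.9, 36.8 and 33.6 FPKM in the survivors, 1.77-fold higher (limma adjusted p = 0.00011), and Plxnb2 at 21.9, 22.8 and 23.4 FPKM in the controls and 35.05, 34.1, 42.4 and 37.1 FPKM in the survivors, 1.60-fold higher. Plxnc1 went the other way, with 10.4, 10.3 and 9.92 FPKM in the controls and 3.39, 3.90, 3.83 and 3.60 FPKM in the survivors, 2.40-fold lower (limma adjusted p = 1.43e-05), and Slit2, a repellent ligand, was 1.52-fold lower. No groups overlapped in these 4 genes.

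In the Wnt list 13 of 24 were higher and 2 lower, with a median of 0.28, and 9 of 13 ligands and receptors were among the higher genes. Fzd2 stood at 0.927, 1.02 and 1.03 FPKM in the controls and 3.67, 3.10, 3.09 and 3.09 FPKM in the survivors, 2.12-fold higher (limma adjusted p = 9.72e-05), Fzd7 was 1.49-fold and the co-receptor Lrp5 1.60-fold higher. Wnt5a, a ligand that mostly acts without beta-catenin, gave 0.794, 0.689 and 0.772 FPKM in the controls and 1.55, 1.84, 1.29 and 1.43 FPKM in the survivors (1.44-fold, limma adjusted p = 0.00476). Axin2, a target that reports beta-catenin activity, gave 0.820, 0.832 and 1.06 FPKM in the controls and 1.02, 0.638, 1.12 and 0.757 FPKM in the survivors and did not pass the test (limma adjusted p = 0.905). List medians were nearly the same in each survivor, 0.26 to 0.28 for Wnt and 0.28 to 0.36 for guidance genes.

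Glycolysis and lactate genes were higher in 16 of 26 and lower in 1, with a median log2 difference of 0.59, the highest of the lists described here. Pfkl, a subunit of the enzyme that commits glucose to glycolysis, stood at 31.6, 31.6 and 31.6 FPKM in the controls and 56.5, 44.3, 57.1 and 52.4 FPKM in the survivors, 1.64-fold higher (limma adjusted p = 0.00103). Pgk1, which makes ATP in the pathway, stood at 169, 168 and 168 FPKM in the controls and 328, 228, 433 and 356 FPKM in the survivors, 1.94-fold higher (limma adjusted p = 0.00685), and Pgam1 was 1.58-fold higher. The count fell to 9 without control 2 and to 10 without control 3, and was 5 in the 5 libraries with most cartilage transcripts (controls 2 and 3 and survivors 1 to 3).

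The survivors differed among themselves in these genes. Against the control mean the glycolysis median was 0.54, 0.16, 0.85 and 0.67 in survivors 1 to 4, and that of the hypoxia list 0.30, 0.060, 0.63 and 0.50. Bnip3, a mitophagy receptor and HIF-1 target, gave 16.1, 17.4 and 15.6 FPKM in the controls and 60.7, 28.7, 92.7 and 70.4 FPKM in the survivors, lowest in survivor 2 and highest in survivor 3 (3.42-fold, limma adjusted p = 0.00647). Cox4i2, the oxygen-regulated subunit of cytochrome oxidase, gave 4.36, 5.02 and 4.99 FPKM in the controls and 17.7, 9.72, 22.2 and 20.5 FPKM in the survivors in the same order (3.08-fold, limma adjusted p = 0.00245). Mitochondrial transcripts, at 14.7, 14.0, 12.3 and 13.6% of FPKM, and the colon sum were lowest in survivor 3; their part in the order was not tested.

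Of 30 tested hypoxia genes 11 were higher and 2 lower, with a median of 0.43. Car12, a carbonic anhydrase, stood at 6.28, 6.44 and 6.49 FPKM in the controls and 15.7, 14.7, 21.4 and 18.2 FPKM in the survivors (2.47-fold, limma adjusted p = 0.00025) and Egln1, the oxygen sensor that marks HIF-1 for degradation, was 1.40-fold higher. Hif1a (limma adjusted p = 0.527) and Vegfa did not pass the test, and Vegfa gave 27.0, 28.7 and 27.6 FPKM in the controls and 28.5, 20.9, 43.9 and 35.3 FPKM in the survivors, with survivor 2 below every control. The count of higher genes was 6 without control 2, 7 without control 3, 7 without survivor 4 and 18 without survivor 2.

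**Figure D2:**
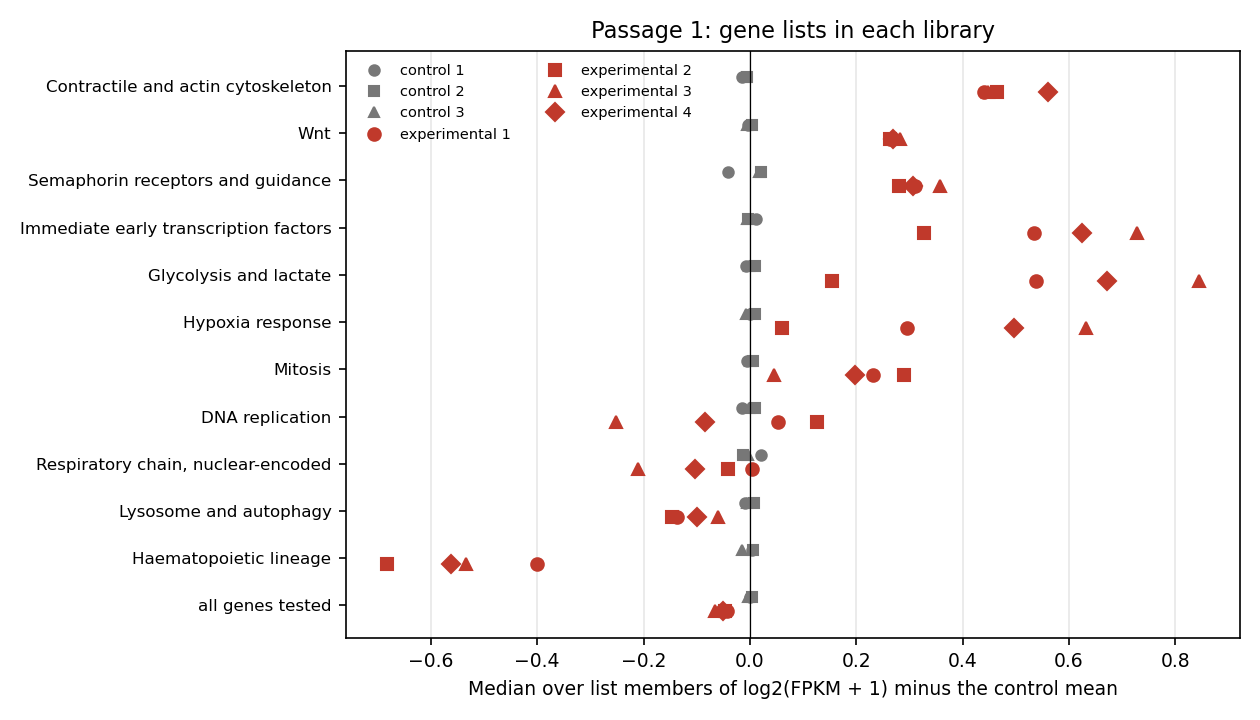
Median log2(FPKM + 1) of each gene list in each library minus its mean over the controls, for 11 lists and all tested genes, with controls and survivors as separate points. Contractile, Wnt and guidance medians lie close together over the 4 survivors, whereas glycolysis runs from 0.16 in survivor 2 to 0.85 in survivor 3.

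The letters ACGTG, searched on both strands in the same windows, were present in 2297 of 8759 genes (26.2%), with 26.3% among higher and 27.2% among lower genes. In the glycolysis list they were present in 11 of 25 genes (44.0%), in the hypoxia list in 12 of 23 (52.2%), and in the lysosome list, most of whose called genes were lower, in 22 of 48 (45.8%). The same stretch is shown for a glycolytic enzyme and for Bnip3 because both carry the letters near genes with large changes; capitals mark the matches, which begin 150 and 131 bases before the start in Pgk1 (chrX:106186850-106187099, plus strand) and 108 and 107 before it in Bnip3 (chr7:138909520-138909756, minus strand), where the matches on the 2 strands overlap.
Pgk1: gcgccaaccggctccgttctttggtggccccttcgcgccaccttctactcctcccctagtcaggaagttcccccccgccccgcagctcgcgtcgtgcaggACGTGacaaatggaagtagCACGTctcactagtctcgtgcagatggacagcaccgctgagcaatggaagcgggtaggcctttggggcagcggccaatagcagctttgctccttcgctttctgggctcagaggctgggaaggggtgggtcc
Bnip3: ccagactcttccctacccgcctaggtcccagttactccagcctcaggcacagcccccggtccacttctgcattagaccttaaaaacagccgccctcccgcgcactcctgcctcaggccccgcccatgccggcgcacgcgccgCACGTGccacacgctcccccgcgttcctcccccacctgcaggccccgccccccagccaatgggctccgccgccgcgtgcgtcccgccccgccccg
These letters also occur in sites of other factors, and a match is not a site.

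Genes of side branches of glucose use were lower or not called. Of 15 tested pentose phosphate and serine pathway genes none was higher and 7 were lower, with a median of -0.17, and 4 to 5 were lower under the other scalings. Shmt2, the mitochondrial serine hydroxymethyltransferase, stood at 118, 120.3 and 123 FPKM in the controls and 92.8, 93.4, 104 and 106 FPKM in the survivors, 1.22-fold lower (limma adjusted p = 0.00965), and Psph, which makes serine, was 1.34-fold lower. Tkt and Phgdh did not pass the test. The count was 3 without control 1, control 2 or control 3, and 4 without survivor 4. In the nuclear-encoded respiratory chain 14 of 75 genes were lower and none higher, close to the 18.9% of all genes, with a median of -0.081; the number lower was 6, 7 and 6 without control 1, 2 and 3, and 8 without survivor 4.

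Genes of blood precursors had the largest share of lower members among the lists. The list was written with earlier results of these data known and holds several of the largest decreases, so its share is a description. Of 48 such genes only 15 were at a testable level in these cells, and of those 10 were lower and 1 higher, with a median log2 difference of -0.48. Lmo2, a bridging protein of transcription complexes, lies on chromosome 2 from 103957986 to 103981878, plus strand and stood at 10.7, 9.96 and 9.34 FPKM in the controls and 2.51, 2.20, 2.06 and 1.52 FPKM in the survivors, 3.60-fold lower with a log2 difference of -1.85 and a standard error of 0.11 (limma adjusted p = 5.33e-05). Lyl1, a helix-loop-helix partner of LMO2, stood at 2.49, 2.84 and 2.55 FPKM in the controls and 0.546, 0.749, 1.03 and 0.527 FPKM in the survivors, 2.13-fold lower (limma adjusted p = 0.000572), and Cbfa2t3, a co-repressor of the same complexes, at 5.61, 5.51 and 5.50 FPKM in the controls and 2.79, 2.45, 2.65 and 2.55 FPKM in the survivors, 1.81-fold lower (limma adjusted p = 7.89e-05). In all 3 genes every survivor lay below every control.

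The other members of these complexes varied. Tal1 gave 4.47, 4.22 and 4.72 FPKM in the controls and 3.17, 3.76, 2.78 and 3.22 FPKM in the survivors, 1.30-fold lower, a call lost without control 3 (limma adjusted p = 0.0572). Gata2, the GATA factor of these complexes, gave 33.0, 33.5 and 32.4 FPKM in the controls and 32.8, 31.8, 32.3 and 31.4 FPKM in the survivors and did not pass the test (limma adjusted p = 0.48), nor did Gata3 (0.179). Myb, a factor of proliferating precursors, gave 8.96, 8.45 and 8.83 FPKM in the controls and 2.57, 2.58, 2.55 and 2.05 FPKM in the survivors, 2.84-fold lower (limma adjusted p = 1.79e-05), and Runx3 was the member that rose, with 1.58, 1.61 and 1.46 FPKM in the controls and 2.66, 2.74, 2.94 and 2.70 FPKM in the survivors (1.48-fold, limma adjusted p = 0.000733).

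Surface and signalling genes of the list fell with the factors. Grap2, an adaptor of lymphoid receptors, stood at 10.8, 11.6 and 10.7 FPKM in the controls and 2.29, 2.13, 2.22 and 1.77 FPKM in the survivors, 3.88-fold lower (limma adjusted p = 7.4e-06), and Procr, the endothelial protein C receptor, at 37.7, 37.0 and 35.2 FPKM in the controls and 11.4, 8.08, 12.1 and 9.14 FPKM in the survivors, 3.40-fold lower (limma adjusted p = 0.000104). Icam2, an adhesion molecule of blood and vessel cells, gave 24.3, 24.2 and 23.8 FPKM in the controls and 12.4, 11.9, 9.46 and 8.94 FPKM in the survivors (2.17-fold, limma adjusted p = 0.000425). The 12 markers of mature blood and macrophages summed to 25.7, 7.52 and 5.58 FPKM in the controls and to 26.1, 12.8, 0.682 and 2.94 FPKM in survivors 1 to 4. Only the haemoglobins Hba-a1, at 0 to 10.6 FPKM, and Hbb-bs, at 0 to 14.4 FPKM, reached 1 FPKM; Ptprc never exceeded 0.0957 FPKM and Adgre1 was listed at 0 in every library. The part of blood transcripts in the lower counts was not tested. The count of lower members was 8 to 10 whichever library was left out and 10 under each other scaling.

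**Figure D3:**
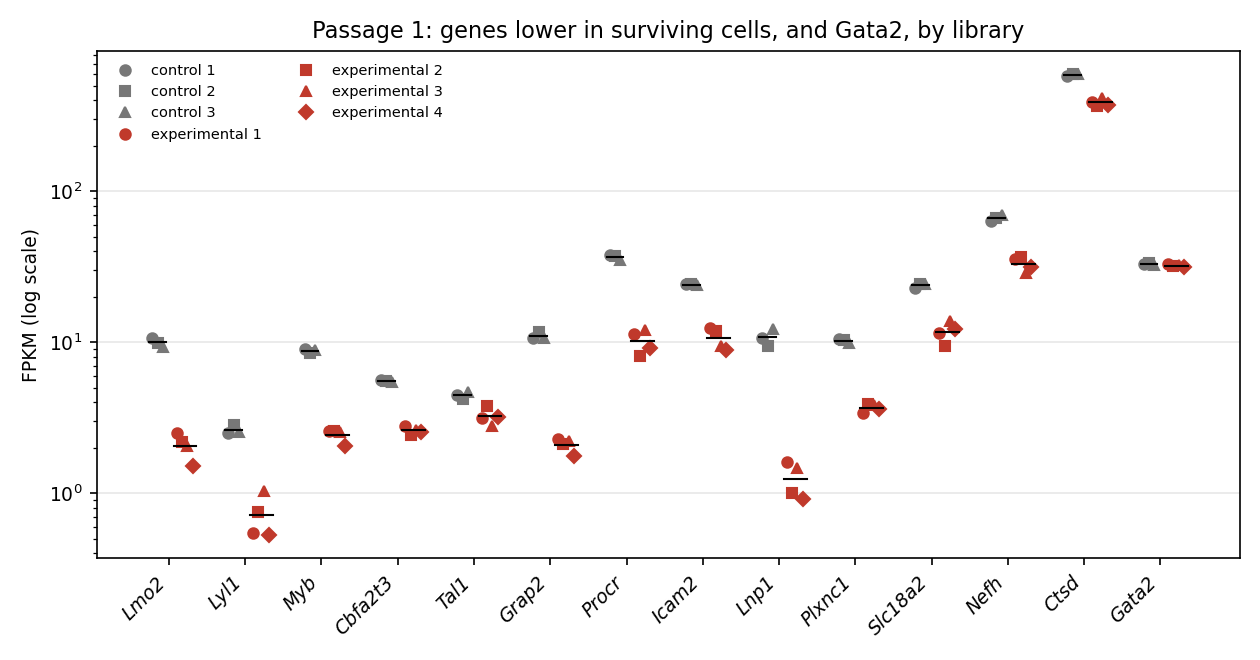
FPKM of 14 genes in each of the 7 passage 1 libraries on a log scale, with a line at each group mean. For 13 genes, from Lmo2 to Ctsd, the survivors lie below the controls, and Gata2 is shown as a member whose groups overlap.

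Sympathetic identity genes moved in both directions. Slc18a2, the vesicular monoamine transporter, stood at 22.8, 24.3 and 24.4 FPKM in the controls and 11.5, 9.38, 13.9 and 12.3 FPKM in the survivors, 1.96-fold lower (limma adjusted p = 0.000856), while Th, the rate-limiting enzyme of catecholamine synthesis, gave 10.5, 11.3 and 11.5 FPKM in the controls and 8.34, 6.48, 11.1 and 8.64 FPKM in the survivors and did not pass the test. Of 20 tested catecholamine and secretory granule genes 7 were lower and 1 higher; without control 2 the number lower was 4. Nefh, a neurofilament of large axons, gave 63.9, 66.4 and 70.0 FPKM in the controls and 35.3, 36.8, 28.9 and 31.7 FPKM in the survivors (1.99-fold lower, limma adjusted p = 0.000222), one of 7 lower genes among 22 of the neuronal cytoskeleton, with none higher; that count was 4 without any 1 control.

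Of 20 neuroblastoma core factors 7 were higher and 5 lower. Mycn, the oncogene amplified in many neuroblastomas, stood at 6.53, 7.97 and 8.57 FPKM in the controls and 13.9, 14.6, 14.6 and 15.1 FPKM in the survivors, 1.80-fold higher (limma adjusted p = 0.000437), and Isl1, a LIM-homeodomain factor of sympathetic neurons, at 3.28, 3.24 and 3.48 FPKM in the controls and 7.30, 7.85, 5.96 and 7.43 FPKM in the survivors, 1.87-fold higher (limma adjusted p = 0.000376). Phox2a and Hand2 did not pass the test. Among 7 receptors and ligands of the neurotrophin and GDNF families, Ngfr gave 43.9, 47.1 and 46.5 FPKM in the controls and 68.6, 70.3, 62.0 and 58.2 FPKM in the survivors (1.40-fold higher), and the GDNF receptor parts Ret and Gfra1 were 1.27- and 1.87-fold higher. The log2 difference of Gfra1 ran from 0.316 to 1.61 over the alternative settings. Its library values are not printed here, and it may have entered the test only through the survivors. Without control 1, 2 or 3 the number of lower core factors was 2, 1 and 1.

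Lysosomal genes gave more lower members by count than any other list. Their share was 39.7%, against 18.9% of all genes, 66.7% of blood precursor genes and 46.7% of pentose phosphate and serine genes. Of 63 tested lysosome and autophagy genes 25 were lower and 2 higher, with a median of -0.13, and of the 26 hydrolases and membrane proteins 14 were lower and none higher, with a median of -0.28. Ctsd, the main aspartic protease, stood at 577, 595 and 598 FPKM in the controls and 391.95, 365, 415 and 374 FPKM in the survivors, 1.53-fold lower (limma adjusted p = 0.000244), and Ctsa, a protective carboxypeptidase, at 52.7, 53.3 and 54.7 FPKM in the controls and 35.4, 35.5, 36.2 and 34.1 FPKM in the survivors, 1.502-fold lower (limma adjusted p = 0.000104). Gusb, Grn, Hexa and Ctsb were 1.49-, 1.37-, 1.31- and 1.27-fold lower. Every survivor lay below every control in these 6 genes. Lamp1, Lamp2 and the regulators Tfeb and Tfe3 did not pass the test. Of the list, 20 to 22 genes were lower under the other scalings and 18 to 26 with any 1 library left out.

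Mitotic genes were higher in 24 of 57 and lower in none, with a median of 0.19, while of 57 replication genes 2 were higher and 5 lower, with a median of -0.043. Ccnb1, the mitotic cyclin, gave 69.1, 71.9 and 70.3 FPKM in the controls and 97.8, 109, 88.0 and 96.5 FPKM in the survivors (1.38-fold, limma adjusted p = 0.00241), and Plk1 was 1.30-fold higher, whereas Mki67, Cdk1, Mcm2 and Pcna did not pass the test. Mitotic medians against the control mean were 0.23, 0.29, 0.045 and 0.20 in survivors 1 to 4. Replication-dependent histone genes, whose level in poly(A) libraries can also reflect RNA quality, were higher in 3 of 8 and lower in none, with a median of 0.25; their medians against the control mean were -0.067 to 0.023 in the controls and 0.30 to 0.40 in the survivors, and the part of RNA quality in the mitotic counts was not tested. The count of higher mitotic genes was 15 without any 1 control and 40 without survivor 3.

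Classical stress programs showed no general rise at passage 1. Of 38 heat shock genes 7 were lower and none higher, of 31 endoplasmic reticulum folding genes 5 were lower and 1 higher, and of 42 p53 and apoptosis genes 6 were lower and 4 higher, each share of lower genes being at or below the 18.9% of all genes. Without control 1, 2 or 3 the lower heat shock genes numbered 2, 3 and 2 and the lower p53 genes 3, 2 and 3, without control 3 the lower folding genes numbered 2, and without survivor 2 or survivor 3 the higher p53 genes numbered 7. The p53 target Cdkn1a, the apoptosis gene Bax, haem oxygenase Hmox1 and the stress factors Ddit3 and Atf4 did not pass the test. In the ATF4 and amino acid list 10 of 34 were lower and 2 higher, and without any 1 control 4 were lower. Cytosolic ribosomal protein genes, 22 of 75 lower and 2 higher, were 6 to 16 lower under the other scalings, and 7, 6 and 5 lower without control 1, 2 and 3.

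**Figure D4:**
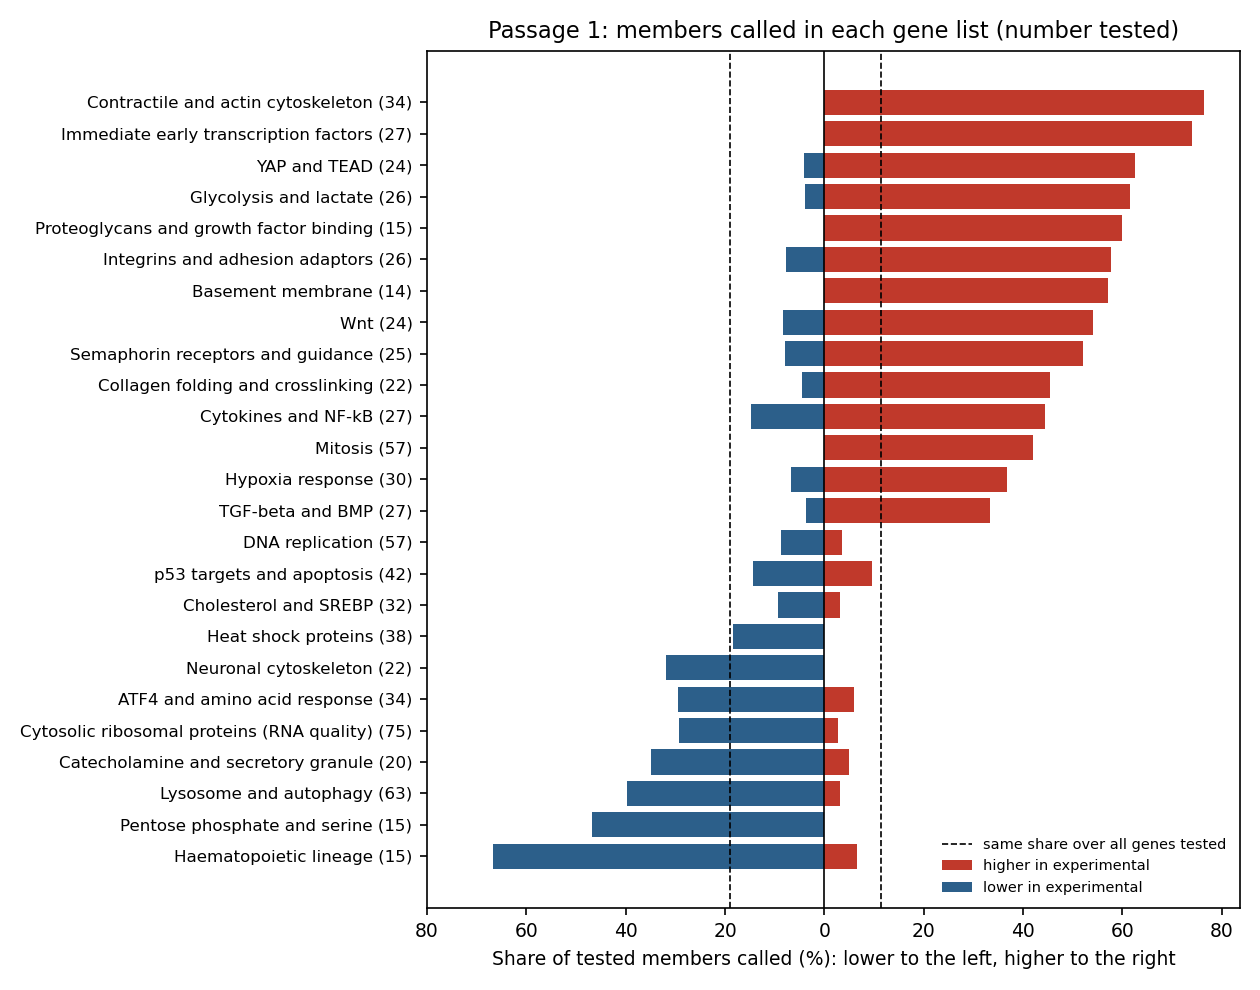
Percentage of tested members called higher (right) and lower (left) in the survivors for 25 gene lists, with dashed lines at the 11.5% and 18.9% of all tested genes. Contractile and immediate early genes extend farthest to the right, and blood precursor genes farthest to the left.

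Several of the strongest decreases lay outside these lists. Lnp1 stood at 10.7, 9.50 and 12.2 FPKM in the controls and 1.60, 1.00, 1.48 and 0.922 FPKM in the survivors, 5.26-fold lower (limma adjusted p = 3.11e-05), Rnd2 at 56.6, 57.3 and 55.8 FPKM in the controls and 26.9, 28.8, 24.4 and 24.6 FPKM in the survivors, 2.12-fold lower (limma adjusted p = 4.82e-05), and Tmem179 at 8.61, 8.52 and 8.07 FPKM in the controls and 3.76, 3.72, 3.36 and 3.08 FPKM in the survivors, 2.10-fold lower. Slc26a4, the anion exchanger pendrin, was 2.32-fold and Rpp38, a subunit of ribonuclease P, 2.15-fold lower. The glutathione transferase Gstm7 and Wfdc15a were 2.11- and 2.33-fold lower. Survivor values of each of these 7 genes lay below all controls, which was a condition for naming them among the largest changes.

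Fcgbp and Cyp2c55 were lower beside a lower colon sum. Fcgbp, a mucus protein and a colon marker, gave 8.39, 5.09 and 3.63 FPKM in the controls and 2.04, 2.13, 0.0267 and 1.96 FPKM in the survivors; its call (limma adjusted p = 0.0307) was lost without control 1 (0.111) and without control 2 (0.0811). Cyp2c55 gave 37.8, 23.4 and 28.7 FPKM in the controls and 15.6, 9.53, 6.41 and 10.2 FPKM in the survivors (2.77-fold, limma adjusted p = 0.00496). Colon marker sums were 616, 270 and 286 FPKM in the controls against 251, 228, 7.53 and 109 FPKM in the survivors. Fcgbp, Cyp2c55 and the sum were all lowest in survivor 3. Cyp2c55 followed the order of the sums in the controls and, apart from survivors 2 and 4, in the survivors. The part of colon transcripts in these 2 genes was not tested. Among the higher genes, Hnrnpa3, an RNA-binding protein, stood at 9.56, 9.40 and 8.94 FPKM in the controls and 32.2, 30.8, 23.3 and 33.5 FPKM in the survivors (2.98-fold, limma adjusted p = 0.00011).

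The most abundant called genes moved little. Beside the actins, Ptma, a small acidic nuclear protein, was 1.17-fold, Rps2 1.12-fold and the cytokine Mif 1.16-fold higher. The mitochondrially encoded oxidase subunits mt-Co1 and mt-Co3 were 1.29- and 1.23-fold and Rps15 1.19-fold lower; Eef1a1, 1.12-fold lower, turned to 0.075 higher on the log2 scale under quantile normalization. The calls of Ptma, Mif and Eef1a1 were lost without any 1 control, with limma adjusted p up to 0.0976, 0.0952 and 0.0943. Gm13394, Gm28437 and Gm29216 were also in this group, but they are copies of other genes and can share reads with them. By the spread over survivors, the most variable genes were mostly colon transcripts, among them Zg16, Car1, Dmbt1 and Krt19.

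At passage 6 the contrast was smaller for many of these genes. A limma contrast over all 13 libraries, which tests whether the survivor difference at passage 6 minus that at passage 1 departs from 0, called 1918 of 13019 genes (14.7%); the number was 1187 to 1238 without any 1 passage 1 control and 1164 to 1223 without any 1 passage 6 control. Among the 1434 higher genes the later change was smaller in 479, and among the 2358 lower genes the later decrease was weaker, or had turned to an increase, in 696. These genes were chosen on the passage 1 difference, which is part of the contrast, so the direction of their later change is a description.

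The contractile list median was 0.50 at passage 1 and 0.24 at passage 6, and 15 of its 26 higher genes had a called smaller change. Over all genes it was 479 of 1434 higher genes. Acta2 had a log2 difference of 3.97 and later 3.30 (interaction adjusted p = 0.0494 by limma), while Myl9 went from 3.07 to 1.86 (0.00089). Proteoglycan and FGF genes had medians of 0.28 and 0.40, with a called smaller change in 0 of the 9 higher genes. Fkbp10 gave 1.81 and 1.75 (0.849), Igfbp5 1.39 and 1.43 (0.804) and Ccl2 2.50 and 2.14 (0.469), and none of these 3 contrasts passed the threshold.

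Medians of other groups lay near 0 or on the other side of it at passage 6. The glycolysis median went from 0.59 to -0.070, that of hypoxia genes from 0.43 to -0.14, and that of immediate early genes from 0.53 to 0.0088. Of the 16 higher glycolysis genes 14 had a called smaller change at passage 6, as had 9 of 11 hypoxia and 11 of 20 immediate early genes. Over all genes it was 479 of 1434 higher genes. List members counted here were also chosen on the passage 1 difference, so these counts are a description. Bnip3 went from 1.77 to -0.67 (interaction adjusted p = 0.0027 by limma) and Spry2 from 0.89 to -0.025 (0.000216). The lysosomal median was -0.13 and later 0.15, and Hexa went from -0.38 to 0.33 (0.000313). In the blood precursor list 9 of 10 lower genes had a called higher later change, against 696 of all 2358 lower genes. Lyl1 went from -1.09 to -0.20 (0.0023), whereas Lmo2 still stood at -1.21 after -1.85 (0.0194).

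The changes were not spread evenly over the chromosomes. On chromosome 1, 22.2% of 679 tested genes were higher and 10.5% lower, whereas on chromosome 11, 7.27% of 1018 were higher and 29.8% lower. Within chromosome 1 a 10 megabase window from 130 to 140 megabases (mm10), chosen after its values were seen, held 34 higher genes among 63 tested (54.0%) and 1 lower, with a median log2 difference of 0.27. The rest of chromosome 1 had 117 of 616 genes higher and 70 lower, with a median of 0.018. Over 216 such windows of the genome the medians ran from -0.25 to 0.27, and the next highest was 0.16. At passage 6 the median of the window's genes was 0.10.

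Among the genes of that window, Mapkapk2, a kinase downstream of p38, stood at 15.3, 15.9 and 15.6 FPKM in the controls and 31.2, 32.5, 28.9 and 32.0 FPKM in the survivors, 1.94-fold higher (limma adjusted p = 3.11e-05), and Dstyk, another kinase, at 1.54, 1.55 and 1.57 FPKM in the controls and 3.56, 3.41, 3.58 and 3.36 FPKM in the survivors, 1.75-fold higher (limma adjusted p = 9.96e-05). Kif21b, a kinesin of neurons, gave 0.371, 0.328 and 0.277 FPKM in the controls and 1.89, 1.82, 2.73 and 2.25 FPKM in the survivors, 2.38-fold higher (limma adjusted p = 0.000261), and Cdk18 was 2.25-fold higher. Survivors lay above controls in each, and these 4 genes were named after their values were seen. Chromosome counts and the number of chromosome copies were not analysed here.

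**Figure D5:**
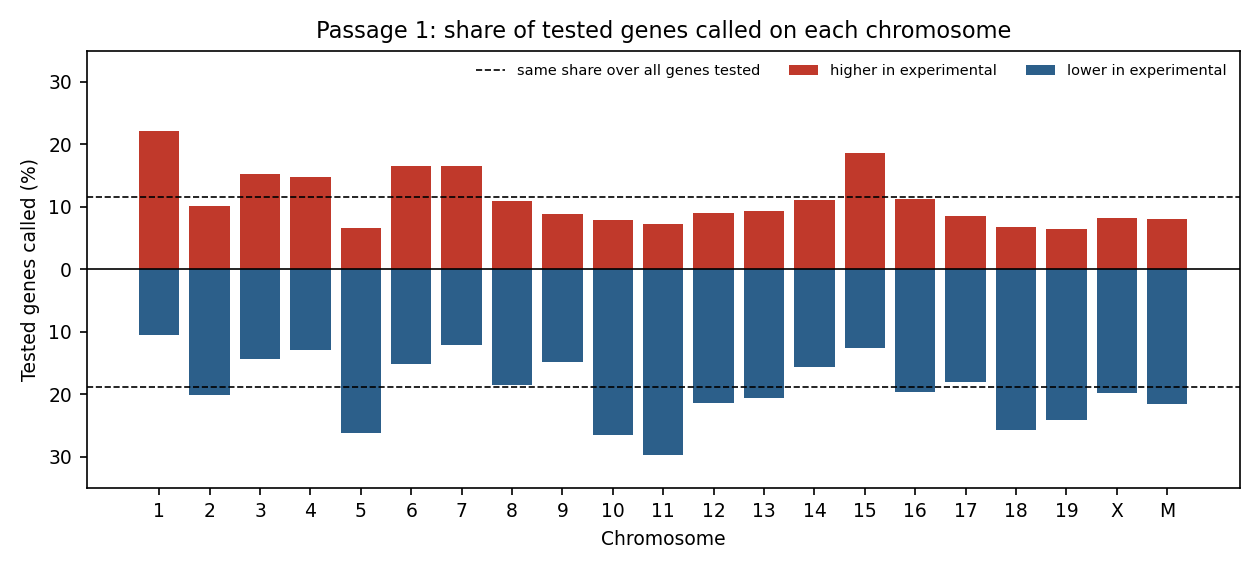
Percentage of tested genes on each chromosome called higher (upward) and lower (downward) in the survivors at passage 1. Chromosome 1 stands highest, at 22.2% higher against 10.5% lower, and chromosome 11 reaches farthest down, at 29.8% lower.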

How the data were processed

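RNA-seq of Neuro2a cells was compared between 4 survivor and 3 control libraries at passage 1. The deposited tables hold FPKM values that the authors computed per gene. The submitters' processing notes name cutadapt, HISAT2, StringTie, DESeq2, edgeR and mm10; their settings, and the scaling between libraries, are not given in the sources used here. Total read counts are unknown, so only relative depth is given. Of 34857 genes, 1 with an empty value was dropped and 34730 matched a symbol. FPKM are not counts, so log2(FPKM + 1) was fitted with limma 3.58.1 (R 4.3.3, intensity trend, two-sided) for genes at 1 FPKM or more in at least 3 libraries, with Benjamini-Hochberg adjustment and a threshold of 0.05; the procedure was tested on simulated data. An exact rank-sum test of 4 against 3 libraries, with both directions counted, cannot go below p = 0.0571, so library measures were not tested. Gene lists were described by counts and medians. Members and lists were chosen with earlier results of these data known. The text names the 15 largest called changes in each direction without overlap and with a mean of at least 3 FPKM, the 6 most abundant called genes in each direction, some of the 8 most variable, and list members. The labels do not say whether replicate numbers pair the samples, and the main fit did not pair them. Promoter sequences are from RefSeq, GRCm38.p6.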

Additional observations from a re-analysis of the deposited data

Results flagged for a closer look

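In 6 of the measures 1 survivor stood far from the other 3, a gap that chance gives in about 1 in 20 groups, among 229 measures examined. Igf2 was 0.0211 FPKM in survivor 4 and Fcgbp 0.0267 FPKM in survivor 3, the libraries with the lowest cartilage and colon sums respectively. Irs1 was 2.47 FPKM and the median of the collagen folding list 0.35 above the control mean in survivor 3, against 0.18 to 0.19 in the others for that list. Fzd2 was 3.67 FPKM in survivor 1, and Myb 2.05 FPKM in survivor 4. All but Igf2 left each survivor on its side of the controls.

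The survivor difference at passage 6 minus that at passage 1 passed the limma threshold in 23 of the 30 genes with the largest passage 1 changes. These genes were picked for a large first change, which enters the contrast, so the values are a description. The differences, on the log2 scale, were -0.67 for Acta2, -1.21 for Myl9, -1.11 for Actg2, -1.19 for Acta1, -1.25 for Igfbp2, -1.23 for Lamb2 and -1.50 for Lama5. They were -2.44 for Bnip3, -1.76 for Cox4i2, -1.12 for Egr2, -1.17 for Fblim1 and -0.96 for Ifitm3. Among genes that were lower at passage 1 they were 1.46 for Procr, 1.12 for Plxnc1, 1.10 for Myb, 1.05 for Tmem179, 1.00 for Grap2 and 0.98 for Lnp1. Rpp38 gave 0.95, Slc26a4 0.92, Rnd2 0.75, Lmo2 0.64 and Icam2 0.47.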

How the results depend on the processing

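The counts of 1434 higher and 2358 lower genes moved by over 1.5 times without any 1 control (830 to 854 and 1200 to 1257) and under 2 other alternatives: a fit with the replicate block, which pairs libraries by number, called 715 and 1098, and the 5 libraries with most cartilage transcripts gave 433 and 543. The cause was not tested for either alternative, and the second also held fewer libraries. Leaving out 1 library gave 830 to 1568 higher and 1200 to 2501 lower genes. The labels state no pairing. Same-number correlations of the deviations were 0.166, -0.192 and 0.239, and those of other numbers ran from -0.354 to 0.263. So few values cannot decide whether the libraries were paired. The 1918 genes whose change differed between passages became 1185 with no filter on low values and 1164 to 2552 with 1 library left out.

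Among the 162 genes named, 29 of those called lost the call in the 5 libraries: Actg1, Vcl, Srf, Itgb1, Irs1, Igf2r, Nfkbia, Socs3, Rela, Pgk1, Bnip3, Egln1, Tal1, Ret, Plk1, Gstm7, Fcgbp, Cyp2c55, Ptma, Rps2, Mif, mt-Co1, mt-Co3, Eef1a1, Rps15, Dlk1, Gm13394, Gm28437 and Gm29216. With the block 9 lost it, and with no filter 12. Eef1a1 reversed under quantile normalization, to 0.0748. In those 5 libraries 19 contractile, 12 immediate early, 6 YAP and TEAD, 2 hypoxia and 2 mitotic genes were higher, and 8 blood precursor and 9 lysosomal genes lower. Without control 1 the calls of Rps2, mt-Co3, Gm28437 and Gm29216 were lost as well (limma adjusted p = 0.0753, 0.0599, 0.0598 and 0.084), and without control 2 those of Rps2, mt-Co3 and Gm29216 (0.0628, 0.0501 and 0.0573). Depth limits what can be said of genes below 1 FPKM, most of which were not tested.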

Other observations

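Long intergenic noncoding RNAs, like all genes, were lower more than higher in the survivors. Of 155 tested, 7 were higher and 44 lower, with a median log2 difference of -0.16, beside -0.053 over all genes. Processed pseudogenes, 956 in all, gave 81 higher and 67 lower. Over all 12469 tested genes 1434 were higher (11.5%) and 2358 lower (18.9%). Imprinted genes had 4 of 14 higher and 3 lower, or 1 lower without control 3. Rtl1, a retrotransposon-derived gene of the Dlk1 region, stood at 3.43, 3.20 and 3.42 FPKM in the controls and 1.10, 0.824, 1.10 and 0.606 FPKM in the survivors, 2.29-fold lower (limma adjusted p = 0.000271), with no overlap, while Dlk1 itself gave 1.16, 1.53 and 1.62 FPKM in the controls and 2.84, 2.30, 2.33 and 2.64 FPKM in the survivors, 1.45-fold higher.

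Of 20 cholesterol synthesis enzymes none was higher and 3 were lower at passage 1, with a median of -0.038, and none was lower without any 1 control. The whole list, with regulators and uptake genes, had 1 higher (6 without survivor 1) and 3 lower of 32 and a median of 0.0021, but varied among survivors, from -0.19, -0.071, 0.064 to 0.12 in survivors 1 to 4. At passage 6 their median was 0.43, and 16 of the 32 had a called higher change than at passage 1. Over all genes 1093 of 12469 had one. Notch pathway genes were higher in 5 of 13 and lower in 1, with 3 higher without control 1 or without control 2. Of 27 TGF-beta and BMP genes 9 were higher and 1 lower, with a median of 0.12.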
